A study of Mus musculus with 2 samples.

Results

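Sense intronic contigs are stretches of continuous RNA coverage that lie inside an annotated gene, on its strand, and touch none of the annotated exons. They were chosen from the contig table on mouse build mm9 by 4 conditions: a length of at least 200 nt, a level of at least 0.5, a position wholly inside an annotated gene of the same strand, and no overlap with an annotated exon of either strand. The level is the authors' coverage per base on a fixed scale, and 0.5 equals a mean coverage of 16.99 reads per base. There were 1067 such contigs, which is 1.64% of the 64885 contigs past both minimums and 0.178% of all 599181 contigs. They lay in 805 host genes and 891 introns on 20 chromosomes and covered 2805255 bases. Because level, length and position chose them, these values are given as a description without a test.

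Livers were taken from C57BL/6J embryos (mouse) on day 14.5 of gestation, male and female littermates pooled, with no treatment or genetic change named. Both libraries, labelled biological replicates 1 and 2 of a single group, are stranded and paired-end and hold rRNA-depleted polyadenylated RNA longer than 200 nt. The contigs and junctions are 1 call set over both libraries, so a contig has no value per library, whereas each junction has a read count in 2 replicate columns. The sources used here do not tie those columns to the labelled replicates. With 1 group there is no contrast between conditions, and the number of litters behind each pool is not stated, so a difference between the libraries may be technical.

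Introns are transcribed with the gene and removed by splicing, which joins a donor site at the 5′ side of the intron to an acceptor site at its 3′ side. Coverage inside an intron of polyadenylated RNA can belong to unspliced or partly spliced transcripts, to introns that stay in the mature RNA, to exons absent from an annotation, or to separate transcripts that start or end within the intron. The fetal liver makes red blood cells as well as hepatocytes, and maturing erythroblasts are known for introns that stay in their polyadenylated RNA, among them those of Slc25a37, the mitochondrial iron importer.

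Replicate 1 had 102720920 estimated gene counts and replicate 2 had 65640933. Markers of both lineages of the organ were high: albumin (Alb) stood at 10323 and 8911 TPM in replicates 1 and 2, and the erythroid heme enzyme Alas2 at 973 and 944 TPM, where TPM, deposited by the authors, means transcripts per 1000000. Intervals below are Wilson 95% intervals on shares of contigs or genes. They treat these as independent, although the 1067 members share 805 hosts and 891 introns, and so are too narrow for shares of members.

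Most members were short relative to the introns that held them. Their median length was 1248 nt, with quartiles at 648 and 2928.5 nt and a longest member of 47898 nt. The host intron, taken as a gap in the union of the host's exon models, had a median length of 18989 nt over members. An intron with several members counts several times in this median. All 12528 introns of the same hosts, each counted once, had a median of 2106.5 nt. A member took a median of 10.3% of its intron, and 81 of 1067 took at least 50%. Levels lay close to the minimum, with a median of 0.678 and an upper quartile of 0.949. There were 250 members at 1 or more, 41 at 10 or more and 11 at 100 or more. The members just inside the level minimum, in Helz, Cep78 and Picalm, stood at 0.5, and the contigs just outside it, in Lims1, Rad51d and Slc25a21, at 0.499. At the length minimum the nearest members, in Qrsl1, Mgam and the gene ENSMUSG00000091872, were 200, 200 and 201 nt long, and the nearest contigs outside it, in Plec, Phf21a and Mgam, were 199, 198 and 198 nt long.

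The nearest exon of the host was a median of 2508 nt away, with quartiles at 750.5 and 9264 nt. Within 100 nt of an exon lay 43 members (4.03%), within 1000 nt 320 (29.99%) and within 10000 nt 812 (76.1%). A contig that reaches an exon is not a member, so coverage that runs on from an exon is left out of these distances. The nearest exon was upstream, on the 5′ side, for 589 members (55.2%) and downstream for 477 (44.7%), with 1 at equal distances. In the 767 hosts with at least 3 introns, first introns held 303 of 1015 members (29.9%), while they made up 19.6% of the intronic bases and 6.15% of the introns of these hosts. Internal introns held 64.5% of the members and 75.3% of the bases, and last introns 5.62% and 5.18%.

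**Figure D1:**
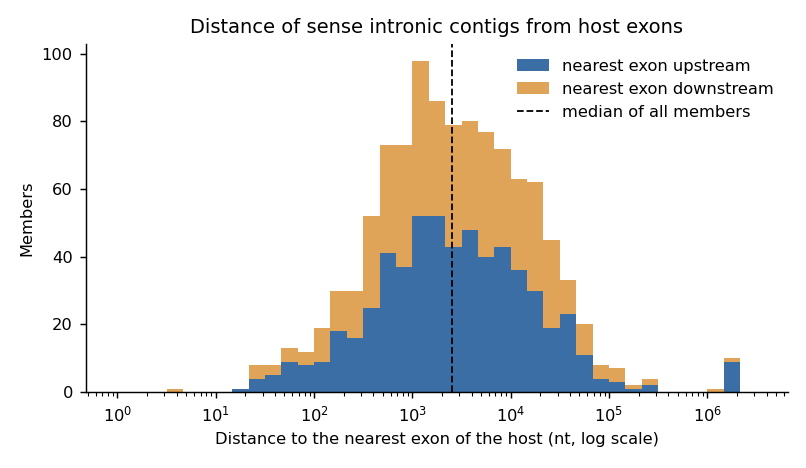
Histogram of the distance from each of the 1067 sense intronic contigs to the nearest exon of its host (x axis, nt, log scale) against the number of contigs (y axis), stacked by the side on which that exon lies. The median is 2508 nt, the quartiles are 750.5 and 9264 nt, and the small group beyond 1000000 nt belongs to very long gene models.

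The host genes were mostly long protein-coding genes with moderate expression. Of the 805 hosts, 762 (94.7%) are protein coding in GENCODE M21, 10 are lincRNA genes and 15 were not found in that annotation. Among 790 hosts in the mm10 gene tables the median was 6.73 TPM in replicate 1 and 5.34 TPM in replicate 2 (mean 6.03 ± 0.979, SD, n = 2). The genes with an intron and at least 1 TPM in both libraries, 10521 in all, had medians of 9.29 and 7.73 TPM. Of the 790 hosts, 102 were under 1 TPM in both libraries, so the 2 sets of medians rest on unlike filters. Of these 10521 genes 663 (6.30%) held a member. The share rose with gene span, from 8 of 2660 genes under 10 kb (0.301%, interval 0.152 to 0.592%) through 182 of 3027 genes of 20 to 50 kb (6.01%, 5.22 to 6.92%) to 99 of 320 genes over 200 kb (30.9%, 26.1 to 36.2%). The median TPM of the longest genes was lower, at 3.22 in the class over 200 kb against 14.6 in the class under 10 kb. From the shortest to the longest class, the 663 hosts had medians of 10.6, 10.5, 9.83, 9.265, 8.31 and 4.165 TPM. All genes of these classes had 14.6, 10.85, 8.49, 5.8, 4.66 and 3.22 TPM. Hosts were thus higher in each class from 20 kb up and lower in the shorter classes. Hosts differed little between the libraries: 644 of 663 (97.1%) were within 2-fold in TPM, beside 96.1% of the 10521 genes.

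**Figure D2:**
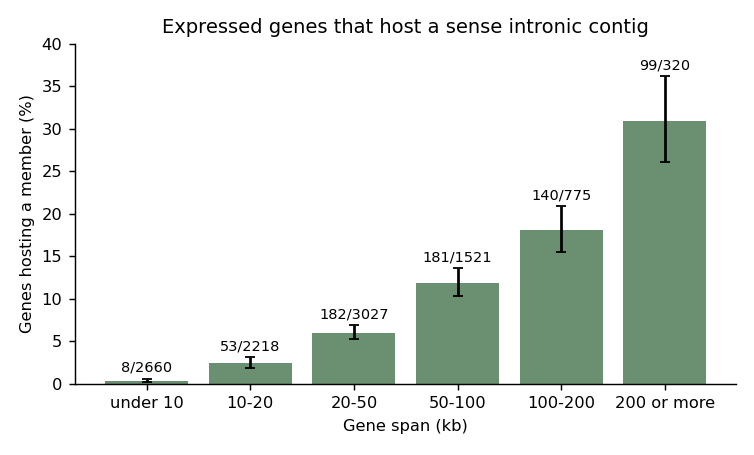
Share of expressed genes that held at least 1 sense intronic contig (y axis, percent) by gene span (x axis, kb), with Wilson 95% intervals as error bars and hosts over genes above each bar. The share is 0.301% in genes under 10 kb and 30.9% in genes of 200 kb or more.

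Host genes had 1 member in 656 cases, 2 in 102 and 3 or more in 47. Slc25a21, a mitochondrial carrier gene of 484839 nt, had the most with 13 members, which covered 131428 nt at levels of 0.525 to 1.08. Its longest member, 28374 nt at a level of 0.648, lay in intron 2, which was covered by contigs of the same strand over 97.0% of its length. Sox6, the gene of a transcription factor that represses embryonic globin, had 7 members over 57155 nt, and Prim2, the gene of a DNA primase subunit, had 7 over 13459 nt. March3, the gene of a membrane-bound ubiquitin ligase, had 10 members over 92345 nt, all in an intron of 113231 nt that was 98.3% in contigs. In these introns of Slc25a21 and March3 the members were pieces of coverage that ran through most of the intron. Gm20388, with 12 members, differs in kind: its model spans 4434882 nt, its first intron 4384418 nt, and 9 of the 12 lay 1922178 to 1930232 nt from its nearest exon. Leaving out the 15 members in the 3 hosts with an intron over 1000000 nt, a choice made after seeing the data, changed none of the summary values of this text past the limits used here.

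Taken per member, contigs of the same strand covered a median of 84.9% of the host intron, so an intron with several members counts several times. This share separates members that stand alone from members within a covered intron. The 580 members (54.4%) in introns covered over at least 80% were longer (median 2148.5 nt), stood at a median level of 0.638, and lay in hosts with medians of 12.6 and 10.6 TPM. Contigs that reach from an exon into the intron made up a median of 24.4% of these introns. The member exceeded the mean coverage of the remaining intron, outside contigs that reach an exon, by a median of 1.27 on the log2 scale (n = 454). The 133 members (12.5%) in introns covered over less than 20% were shorter (median 480 nt), had a median level of 1.09, lay in hosts with medians of 0.630 and 0.555 TPM, and exceeded the remaining intron by a median of 7.21 (n = 116). Only 1 of the 41 members at a level of 10 or more was in an intron covered over at least 80%. These 80% and 20% limits, and the level classes, were set after the values were seen.

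Members stood below the exonic contigs of their host as a rule. An exonic contig is one that overlaps an exon of the host, and it can also hold many intronic bases. Wherever a level is set against exons below, these contigs are meant, so the reference is not the level of exons alone. For 1049 members with a same-strand contig over an exon of the host, the log2 ratio of the member's level to the median level of those exonic contigs had a median of -0.90 and quartiles of -1.75 and 0.10. The sign depends on the level minimum: among the 250 members at 1 or more the median was 0.91, and with a minimum of 0.25, which takes in 8105 contigs, it was -1.997. Against the highest exonic contig of the host in place of the median it was -2.89. There were 293 members (27.9%) above that median and 117 (11.2%) above every exonic contig of the host. The level of a member showed no close relation to the level of the exons: across the 1049 members Spearman's rho was -0.04, given as a description because members of a host share its exonic level and all share the minimum of 0.5. Coverage of the opposite strand was absent over 741 members (69.4%) and reached 0.1 of the sense coverage over 60.

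**Figure D3:**
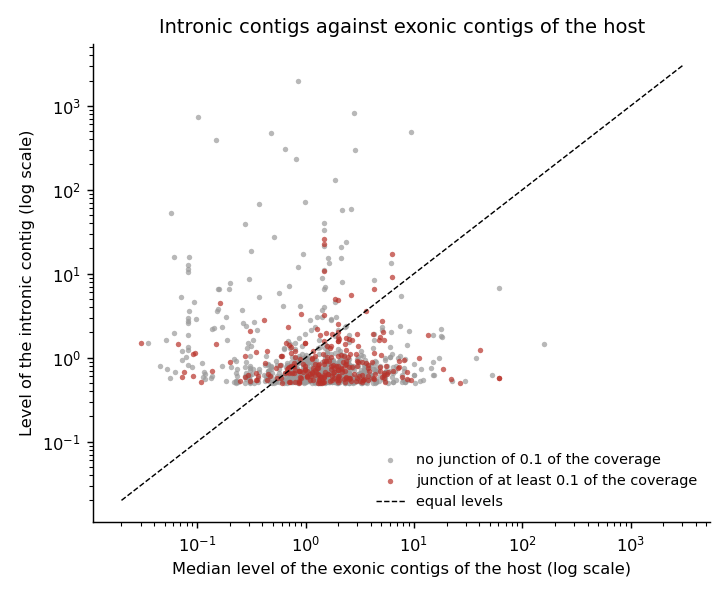
Level of each sense intronic contig (y axis, log scale) against the median level of the exonic contigs of its host (x axis, log scale) for the 1049 contigs with such a value, red where a splice junction with at least 0.1 of the coverage of the contig was present. Most points lie in a band just above the minimum of 0.5 at any exonic level, and the contigs at 100 or more are all grey.

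Splice junctions were counted at a member where a donor or acceptor site of a same-strand junction with at least 5 reads lay within it or within 5 nt of its edge. By this count 292 of 1067 members (27.4%, interval 24.8 to 30.1%) had a splice site. Both an acceptor that leads in and a donor that leads out were seen at 82 (7.69%), an acceptor only at 79 (7.40%), a donor only at 96 (9.00%), and junctions wholly inside the contig at 35 (3.28%). The remaining 775 (72.6%) had none. Among contigs past the same minimums, a splice site was seen at 97.6% of the 61141 that overlap an exon of the same strand, 38.8% of the 1749 outside genes, 33.9% of the 605 that overlap only an exon of the other strand and 29.4% of the 323 within introns on the opposite strand. Exonic contigs were also higher, with a median level of 1.83, and the part of their level in this difference was not tested. With junctions of 1 read counted, 75.1% of members had a site, and with a minimum of 20 reads 15.2%. The authors' de novo transcript models had a same-strand exon over 679 members (63.6%), beside 91.1% of exonic contigs, 83.2% of those outside genes, 77.1% of those within introns on the opposite strand and 31.2% of those that overlap only an exon of the other strand.

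Since 5 reads are a small share of a high coverage, the reads of the strongest junction were also set against the mean coverage of the contig. That limit was chosen after the data were seen. A junction of at least 0.1 of the coverage was present at 260 members (24.4%, interval 21.9 to 27.0%), and one at least as strong as the coverage at 121 (11.3%). The 260 comprised 89 with a donor only, 77 with both sites, 68 with an acceptor only and 26 with inner junctions. The first intron held 41 of the 89 members with a donor only (46.1%, 36.1 to 56.4%), 12 of the 26 with inner junctions (46.2%, 28.8 to 64.5%), 28 of the 77 with both sites (36.4%, 26.5 to 47.5%) and 23 of the 68 with an acceptor only (33.8%, 23.7 to 45.7%). Among the 807 members without such a junction it held 240 (29.7%, 26.7 to 33.0%). The nearest exon was upstream for 44 of 68 with an acceptor only (64.7%, 52.841 to 74.998%), 51 of 89 with a donor only (57.3%, 46.9 to 67.1%), 12 of 26 with inner junctions (46.2%, 28.8 to 64.5%) and 33 of 77 with both sites (42.9%, 32.4 to 54.0%), beside 449 of the 807 (55.6%, 52.2 to 59.0%). Apart from the donor-only class in first introns, each of these class intervals overlapped that of the 807. The de novo models covered 166 of the 260 (63.8%) and 513 of the 807 without such a junction (63.6%).

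**Figure D4:**
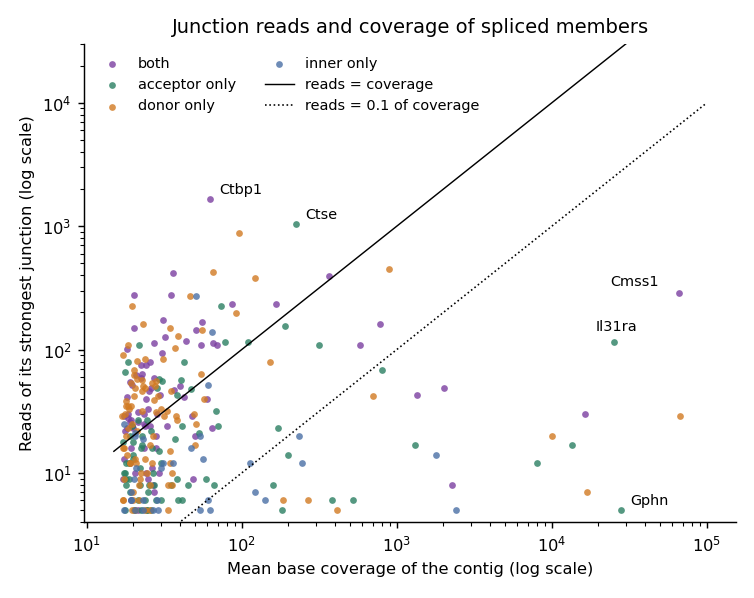
Reads of the strongest junction (y axis, log scale) against the mean base coverage of the contig (x axis, log scale) for the 292 sense intronic contigs with a splice site, coloured by which sites were seen. Ctbp1 and Ctse lie above the line of equal values, while Cmss1, Il31ra and Gphn lie far below 0.1 of their coverage.

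Junctions that join a member to a site outside it gave 687 entries. A junction between members is entered for each of them, so there are fewer distinct junctions than entries. All 687 were unannotated by the flag in the junction names. The selection largely fixes this, because a site inside a member lies in no annotated exon. Of these, 273 (39.7%) had their other site at the edge of an annotated exon, 542 (78.9%) had reads in both replicate columns, and 422 (61.4%) had an irreproducible discovery rate (the authors' measure of disagreement between replicates) of at most 0.1. The median entry had 11 reads. Summed over members, junctions had 17557 reads in the first replicate column and 12151 in the second, which is 200.5 and 181.6 per 1000000 junction reads. These sums count a junction between members once for each of them, whereas the total of all junction reads counts it once. The shares are therefore too high by an amount that was not determined. Among supported members, 66 of 89 with a donor only, 61 of 77 with both sites and 39 of 68 with an acceptor only were joined to an annotated exon edge.

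The use of these junctions was measured at the annotated end, as the share of all junction reads of that annotated site that led to the member. The 112 junctions from an annotated donor into a supported member took a median of 7.69% of the reads of that donor, and 14 took at least 50%. The 161 junctions from a supported member to an annotated acceptor took a median of 7.78%, and 26 took at least 50%. At most of these annotated sites the larger share of reads went to another junction.

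Ctbp1, the gene of a transcriptional corepressor, had the most junction reads. The member chr5:33611240-33617349 on the minus strand (6110 nt, level 1.85) filled most of its first intron of 7741 nt. Into it led 1108 reads from the annotated donor, 911 and 197 in the 2 replicate columns, and out of it led 1651 reads to the annotated acceptor, 976 and 675. These sites bound an exon of 193 nt, chr5:33612091-33612283, absent from the annotation used. The junction that skips it had 254 reads, so inclusion by junction reads was 84.5%, with 86.4% and 80.6% in the replicate columns. Inclusion here is the mean of the reads in and out over that mean plus the skipping reads. Only the junction between the same annotated donor and acceptor counts as skipping. Reads that join either of these sites to any other site are left out. It takes both sites to be used by the same transcripts, which was not tested.

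The same layout was found at 45 members, where the strongest acceptor preceded the strongest donor and both led to annotated exon edges. The stretches between these sites are called exons here, although whether 1 transcript used both sites was not tested. Reads in and out could differ widely, as with 21 in and 127 out in St3gal5. These exons had a median length of 154 nt (27 to 3974 nt), 38 of 45 were under 300 nt, and 17 of 45 were a multiple of 3 nt long. The contig around them was longer, with a median of 1500 nt, so coverage went beyond the exon. At 41 of 45 both junctions had reads in both replicate columns. Every one of the 45 also had a skipping junction, and inclusion had a median of 7.90% with quartiles of 2.43 and 21.4%. It was at least 10% at 21 exons and at least 50% at 5. The replicate columns differed by a median of 3.13 percentage points and at most by 37.4. The values of single genes in the next paragraph, other than Ranbp3, Igf2, Ube3a and Serpina1d, were picked after they were seen.

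Inclusion was highest at a 51-nt exon of Fam49b, chr15:63854125-63854175, where 170 reads led in, 174 out and 14 skipped it (92.5%; 94.7 and 82.6% in the replicate columns). The 170 reads were 91.4% of all junction reads of the annotated donor. The 174 reads were only 41.3% of those of the annotated acceptor, where most reads came from other donors. Pwwp2a, the gene of a chromatin reader protein, had a 69-nt exon with 30 reads in, 41 out and 16 skipping (68.9%). At these low counts the replicate columns stood apart, at 60.7 and 81.0%. The 30 reads into the Pwwp2a exon were 65.2% of the reads of their annotated donor. The 41 reads out were 21.6% of those of their annotated acceptor. Kdm6a, the gene of an X-linked histone demethylase, had a 156-nt exon at 34.1% (29.9 and 39.2%). Hpcal1, the gene of a calcium sensor, had an 86-nt exon at 31.4% (26.5 and 44.0%). Ranbp3, the gene of a Ran-binding nuclear export factor, had a 201-nt exon, chr17:56831944-56832144, with 419 reads in, 268 out and 1383 skipping (19.9%; 18.0 and 22.8%). At the other end, Igf2, the imprinted fetal growth factor gene, had a 69-nt exon in intron 4 with 25 reads in and 41 out against 2930 skipping (1.11%; 1.09 and 1.13%), although its member stood at a level of 1.25. Serpina1d, an alpha-1-antitrypsin gene, had 33 reads in and 20 out against 9841 skipping (0.269%; 0.483 and 0.175% in the replicate columns); its close paralogs can share reads, so this value is uncertain. Ube3a, an imprinted ubiquitin ligase gene, had a 37-nt exon at 7.55% with only 8 reads in and 16 out.

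Ctse, the gene of the aspartic protease cathepsin E, had 5 members in its first intron of 23318 nt. The annotated donor of exon 1 led into the member chr1:133544372-133545412 (1041 nt, level 6.60) with 1042 reads, 515 and 527 in the replicate columns, which was 77.8% of all junction reads of that donor (72.2 and 84.1%). No donor led out of this member. The member that follows, chr1:133545471-133547913, was the highest of the 5 at 8.32 and had no junction, and 85.6% of the intron was in contigs. A further 128 reads joined a donor inside the first member of the intron (level 1.14) to the same acceptor. Ctse stood at 8.55 and 10.9 TPM in replicates 1 and 2.

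M1ap, named for a meiosis protein, had the opposite layout. The member chr6:82965164-82965622 in intron 7 of 9 (459 nt, level 2.82, 2.76 above the exonic median on the log2 scale) had no acceptor, and a donor 194 nt from its 5′ edge led to the annotated downstream exon with 888 reads, 408 and 480. Those were 97.0% of the reads of that acceptor (96.7 and 97.4%). Adcy7, an adenylyl cyclase gene, and Mcc followed this pattern with 424 and 161 reads, 73.7 and 93.6% of the reads of the annotated acceptor. In Adk, the adenosine kinase gene, 384 reads took 46.2% (51.9 and 35.0%). Adcy7, Mcc and Adk were chosen after their values were seen.

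Firre, a long noncoding RNA gene of the X chromosome, had 10 members, and all 10 were spliced on both sides. The members (276 to 2041 nt, levels 0.598 to 4.88) lay in intron 6 of 8, 50393 nt long, and the intron was 43.1% in contigs. Junctions joined the members in a chain: the strongest had 275 reads (198 and 77), and the next 234 (145 and 89). Exonic contigs of the gene were at about the same level, with log2 ratios of the members from -1.74 to 1.29. The host itself stood at 3.81 and 2.99 TPM.

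Tusc3, the gene of an oligosaccharyltransferase subunit, had 2 neighbouring members in introns 8 and 9 at levels of 17.1 and 9.25, joined across the annotated exon by a junction of 110 reads (55 and 55). From the same donor, 2 further junctions to other acceptors in the second member had identical counts of 97 reads (51 and 46 each). Whether the same reads were counted at both places was not tested.

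**Figure D5:**
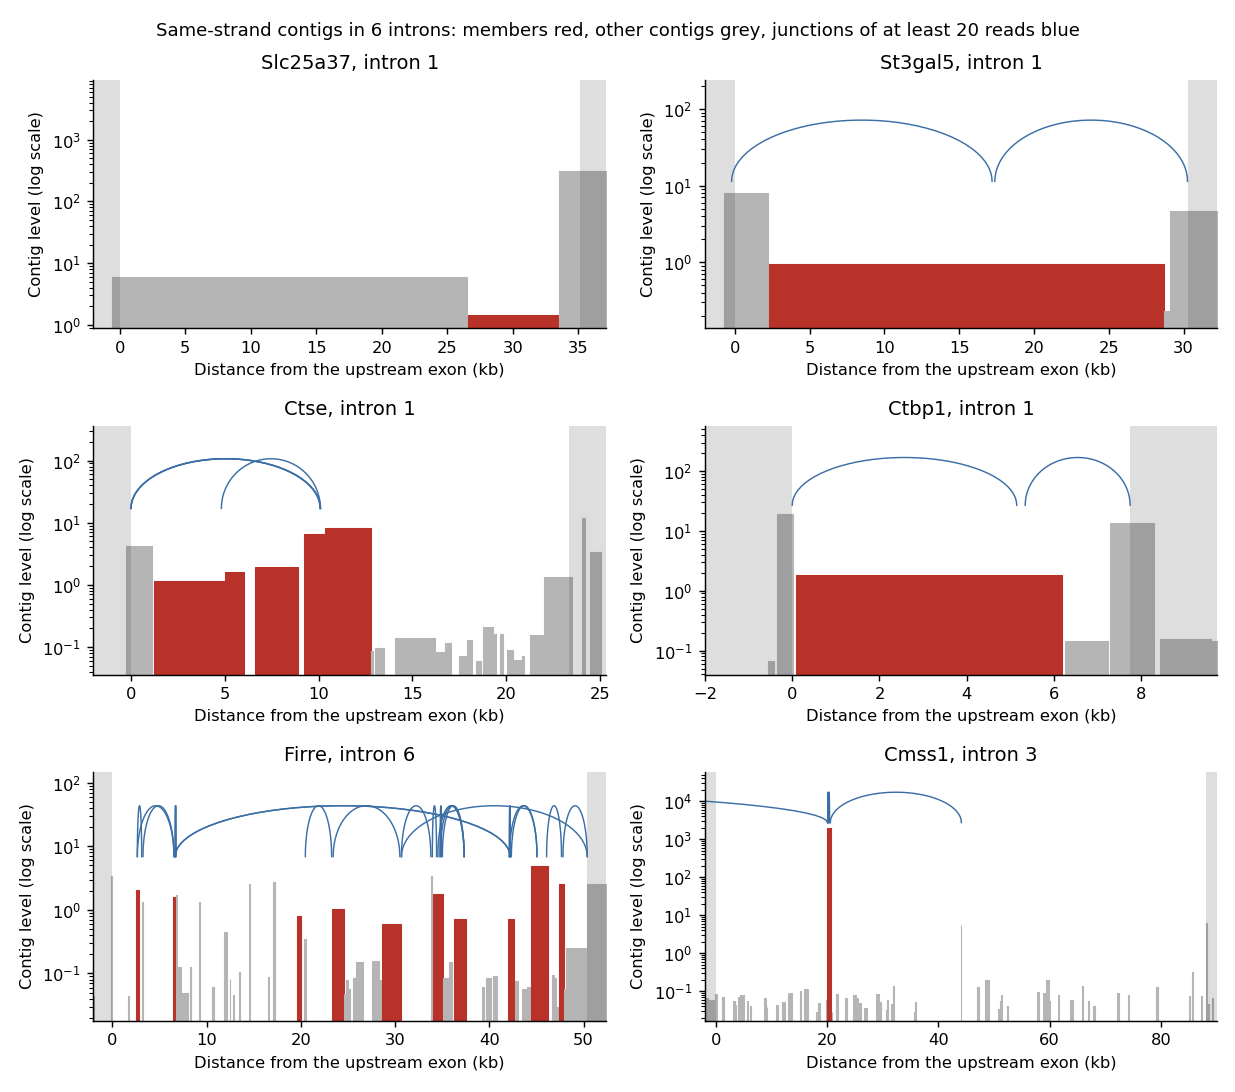
Same-strand contigs in 6 introns by distance from the upstream exon (x axis, kb) and level (y axis, log scale); members are red, other contigs grey, flanking gene parts shaded, and blue arcs join the sites of junctions with at least 20 reads. Slc25a37 and St3gal5 are covered end to end, Ctse rises at an acceptor 10 kb into the intron, Ctbp1 holds an exon bounded by both sites, Firre shows a chain of spliced members, and Cmss1 a lone peak at 1950.

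The highest members formed a group with little splicing. The 11 members at a level of 100 or more held 54.5% of the summed coverage of all 1067. They were 222 to 906 nt long and exceeded the exonic median of their host by 5.72 to 12.84 on the log2 scale (10 with a value), and 10 of 11 had no contig on the opposite strand. All 11 overlapped a de novo exon. A splice site was seen at 9 of 11, but the strongest junction was at most 0.00459 of the coverage and none led to an annotated exon edge. Of the 41 members at 10 or more, 24 had a site and 4 a junction of at least 0.1 of the coverage, whereas at levels under 1 any junction of 5 reads exceeds 0.1 of the coverage, so all 184 members with a site among 817 passed.

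The first of these, chr17:71312997-71313247 in the gene ENSMUSG00000085916, stood at 1980 over 251 nt. Cmss1, a small-subunit ribosome assembly gene at 3.45 and 1.92 TPM, held the next, chr16:57391221-57391879, at 1950 over 659 nt and 11.15 above its exons on the log2 scale. Its strongest junction had 289 reads (190 and 99), which is 0.00437 of the coverage. Gphn, the gephyrin gene, held a member at 821 with 5 junction reads, all in 1 replicate column. Il31ra, a cytokine receptor gene at 0.04 and 0.02 TPM, held one at 743 over 222 nt, with 116 reads at a junction of which 106 were in 1 column. Ddah1 and Camk1d followed at 493 and 480, then Slc22a29, Tecpr2 and Btbd9 at 396, 302 and 235, Commd10 at 130 and Traf5 at 70.7. The hosts of these members were at very different abundances in replicate 1, from 0.03 TPM for Slc22a29 to 15.1 TPM for Ddah1. How reads that map to several places were counted is not given in the sources used here, and their part in these levels was not tested.

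The longest members lay in introns covered almost throughout. St3gal5, the ganglioside GM3 synthase gene at 115.5 and 93.6 TPM, had a member of 26350 nt at a level of 0.946, chr6:72050303-72076652, in a first intron of 30269 nt that was 99.5% in contigs. Its level was lower than that of its exons by a log2 ratio of -3.09. A donor within it led to the annotated exon with 127 reads (57 and 70), and together with 21 reads at an acceptor it bounded an exon of 181 nt that was included at 2.43%. The replicate columns stood apart here, at 1.36 and 5.70%. Pde4d, a cyclic AMP phosphodiesterase gene, had a member of 27090 nt at 0.805 with no junction, 1.39 above the exonic median. Specc1 had one of 24472 nt at 0.793 with 20 reads at a donor, and March3 2 of 47898 and 22677 nt at 1.88 and 1.67.

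Among genes of red cells, 9 of 46 expressed genes of the erythroid and heme list (19.6%) held a member, beside 6.30% of all expressed genes. The list was also far more expressed, with a median of 134.2 TPM. All 10521 expressed genes had medians of 9.29 and 7.73 TPM in replicates 1 and 2. All but 1 of the 13 members in these 9 hosts had no splice site, the exception being Bnip3l, the gene of a mitophagy receptor, with 12 reads at a donor. Slc25a37 stood at 471.5 and 457.7 TPM, and its first intron of 35109 nt was 99.7% in contigs. The contig that starts at exon 1 ran 26506 nt into the intron at a level of 6.04, the contig over the next exon stood at 313, and the member between them, chr14:69869307-69876187, was 6881 nt long at 1.46. It was lower than the exonic median by a log2 ratio of -6.77. Rhd, a blood group gene at 249 and 294.5 TPM, had 2 members at 2.21 and 1.83 in its first intron, which was 98.2% in contigs. Uros, a heme synthesis gene, had 1 at 2.37. Genes of the red cell membrane skeleton were hosts as well: Sptb (beta spectrin) had 3 members, the longest 15187 nt at 0.855 and 130 nt from exon 1, and Epb41 (protein 4.1) had 2 at 1.19 and 0.651.

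Blood transcription and chromatin genes held members in 9 of 42 expressed cases (21.4%), Bcl11a among them, which is on both lists. Besides Sox6 these were Mllt10, whose member at 1.33 lay 75 nt from the upstream exon, Nsd1 with 3 members, Foxo3, Mllt3, Ezh2, Ncor1 and Chd7. Imprinted genes were hosts in 5 of 26 cases (19.2%): Zim1 at 2.15, Trappc9 at 1.95, Igf2, Ube3a and Sgce. Hepatocyte and plasma protein genes were hosts in 4 of 51 cases (7.84%), among them Serpina1d at 0.735, Apoh at 0.532 and Gpc3 at 0.505. Cell cycle genes were hosts in 5 of 64 cases (7.81%), led by Cdc45 at 5.47 and Rb1, the retinoblastoma gene, with a pair in its last intron at 5.07 and 4.59. Splicing factor genes were hosts in 5 of 74 cases (6.76%), with Pspc1 at 1.07 and Srsf4, an SR protein gene, with 2 at 0.625 and 0.624. None of 58 snoRNA host genes held one. Of 9 genes listed for retained introns 1 did, Slc25a37 (11.1%, median span of the list 20037 nt). A contig that reaches an exon is not a member, so an intron covered in 1 piece with its exons gives none. Spans differed between these lists: the median span of the expressed genes was 104453 nt for blood transcription and chromatin genes, 28628 nt for imprinted, 28071.5 nt for cell cycle, 23451.5 nt for erythroid and heme, 21495 nt for splicing factor, 14110 nt for hepatocyte and 5675.5 nt for snoRNA host genes, beside 22460 nt for all 10521. Median TPM differed too, at 159.1 for snoRNA host, 149.6 for hepatocyte, 134.2 for erythroid and heme and 40.3 for splicing factor genes. It was 28.2 for cell cycle, 19.9 for imprinted and 5.155 for blood transcription and chromatin genes. The part of gene span and expression in these shares was not tested beyond the classes of span above.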

How the data were processed

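Per the file headers and a deposited note, the authors supplied contigs and splice junctions on mm9. The authors deposited a coverage signal (the level) for each contig. The authors also deposited a score per contig, which the values show to be the base coverage summed over it before any scaling. From the deposited values the level is the summed coverage over the length times 0.0294. Contigs and junctions carry an irreproducible discovery rate, deposited like a p-value and 0 for all 1067 members, and a junction carries a read count in 2 replicate columns, deposited as whole numbers. Gene and exon models on mm9 are Ensembl 65 and de novo Cufflinks models with RPKM, per the file headers. The deposited mm10 gene tables hold an expected count, TPM and FPKM per gene, and were joined by gene identifier only. Which aligner and filters made these files is not given in the sources used here.

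Contigs were selected, placed and joined to junctions with Python 3.11.15, pandas 2.3.3 and numpy 2.4.6. Figures used matplotlib 3.10.9 and intervals and correlations scipy 1.17.1. A contig inside several genes (14 members) was given to the one with the nearest exon. The selection, junction classes and distances were tested on simulated contigs and all planted ones were recovered. Genes named are, by rule, the 12 members of highest level (1 per host), the 6 longest, the 6 with most junction reads, the 6 hosts with most members (a tie added 1), the 3 contigs on each side of each minimum, and up to 4 members per host list; others are marked where they occur. A few genes chosen this way are not reported here. The members and lists were chosen with earlier results of these data known. With 1 group of 2 libraries, no test between conditions was made. Sequences are not used here. Alternatives covered the minimums, the rule on exons and hosts, the junction limits, the exonic reference and the abundance unit.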

Additional observations from a re-analysis of the deposited data

How the results depend on the processing

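Of 99 alternative values, 73 stayed within the limits used here and 26 did not. For shares, the limits were the Wilson interval of the main value. For the median host TPM they were the mean ± SD of the library medians, 5.053 to 7.012. Some of the 73 could not have left these limits, so the count does not measure stability. All 1067 members had a discovery rate of 0, so a limit of 0.1 on contigs removed none. With 1 library left out, the median host TPM is a value that set the limit and always lies inside it. With a level minimum of 0.25 there were 8105 members in 3616 hosts, with a splice site at 11.3%, both sites at 2.89%, a de novo exon at 38.2% and a median log2 ratio to host exons of -1.997. With a minimum of 1 there were 250 members in 206 hosts at a median distance of 4154.5 nt, with a site at 43.2%, both at 10.8%, a de novo exon at 80% and a median host TPM of 4.24, and the log2 ratio turned to 0.91. A length minimum of 100 nt gave a log2 ratio of -0.75. Counting junctions of 1 read gave a site at 75.1% and both at 29.1%, at least 20 reads gave 15.2% and 3.47%, and a discovery rate of at most 0.1 gave 20.9% and 5.90%. A junction of at least 0.1 of the coverage, added after seeing the data, left 24.4% with a site. Against the highest exonic contig the log2 ratio was -2.89 and against the RPKM of the host -1.39. The median host value was 7.96 as FPKM, 7.10 TPM with each member counted once, and 5.34 to 6.73 TPM with 1 library left out. The causes of these changes were not tested. No paired analysis was possible because the series has 1 group. Contig levels combine both libraries, so their spread between replicates is unknown, and junctions of 5 to 10 reads are near the limit of this depth.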

Other observations

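In 5 of the 82 members with both sites the strongest acceptor did not precede the strongest donor. In Hs6st1, a heparan sulfate sulfotransferase gene, they met at the same point: 63 reads (26 and 37 in the replicate columns) led from an annotated donor to an acceptor at chr1:36150617, and 19 reads (10 and 9) led from a donor at the base before it, chr1:36150616, to an annotated acceptor, so that no exon lay between them. The member around this point was 16419 nt long. In Lmna, the lamin A gene, Atg4a, Mob2 and Usp25 the donor came before the acceptor, so the junctions do not bound an exon. These genes were chosen after their values were seen.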
